A study of Mus musculus with 6 samples.

Results

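The Rab GTPase genes were followed in sorted adult mouse hematopoietic stem cells (HSCs), as 59 of 18193 named genes, read by 132 of 45037 array probe sets. A probe set was taken as a member when its platform gene symbol was Rab followed by 1 or 2 digits and at most 1 letter, or a letter and a digit. The family was chosen because of the differences that Rab15 and Rab22a showed in the comparison of genotypes. Differences of its members between the genotypes are therefore given as a description, with no test.

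Rab proteins are small GTPases that mark the membranes of the cell. Bound to GTP, each is recruited to its own compartment, where it calls in effectors for vesicle budding, transport, tethering and fusion. Exchange factors load them with GTP, GTPase-activating proteins switch them off, and GDP dissociation inhibitors carry them back through the cytosol. In blood cells they serve receptor uptake and recycling, granule release and lysosome function.

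Single-colour arrays, 6 in all, held RNA of 3 samples from PU.1 ki/ki knock-in mice and 3 from wild-type mice, all adult and with no treatment named. The HSCs of both groups had been sorted as lin-, sca1+, ckit+, CD150+ and CD48-. A description field of these samples mentions embryos, unlike every other label, and it was not used. PU.1, encoded by Spi1, is an ETS transcription factor of blood cell development, and the series concerns its autoregulation in HSC proliferation. The labels do not give the site or design of the knock-in allele, the sex of the mice, or whether each replicate was its own animal. The spread between arrays may therefore be technical.

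Arrays of the wild-type group differed more among themselves than those of the knock-in. Correlations of log2 intensities over all probe sets were 0.940 to 0.951 among PU.1 ki/ki arrays and 0.831 to 0.858 among wild-type arrays. A bright probe set, with a median of at least 512 on the other 5 arrays, lay at least 4-fold below that median for 11.5% and 11.3% of cases on wild-type replicates 2 and 3 and for 0.119 to 1.12% on the other 4 arrays. Xist RNA, made from the inactive X chromosome, on its brightest probe set read 16 on wild-type replicate 2, against 2322 to 6955 elsewhere. Spi1 read 181 ± 27.2 on PU.1 ki/ki arrays against 184 ± 22.6 on the others (SD, n = 3), a log2 difference of -0.03 (limma adjusted p = 0.992). HSC genes were present. Of 8 listed, 6 had a named probe set, and the sum over these was 5504 to 6740 on PU.1 ki/ki and 3842 to 6996 on wild-type arrays. Of these 6 genes, 3 had a higher and 3 a lower mean in PU.1 ki/ki. Slamf1, which encodes CD150, read 440, 54 and 42 on wild-type replicates 1 to 3 and 170 to 1525 on PU.1 ki/ki arrays. Kit, which encodes the ckit of the same sort, read 374, 1622 and 1001 on wild-type replicates 1 to 3. On PU.1 ki/ki replicates 1 to 3 it read 617, 452 and 1368. Genes listed as markers of other blood cells also gave signal, which does not by itself show mature cells. Sums over neutrophil genes were 14583 to 21194 on PU.1 ki/ki against 18622 to 25315 on wild-type arrays. In PU.1 ki/ki 8 of 8 were lower, 1 of them (S100a8) without overlap. Macrophage genes summed to 657 to 1543 and 265 to 667, with 7 of 7 higher in PU.1 ki/ki, among them C1qb, and with C1qa and Adgre1 under 50 on all arrays. Mast cell and basophil genes summed to 132 to 177 and 251 to 325, with 6 of 6 lower and with Ms4a2 under 50 on all arrays. The part of these cells in the Rab values was not tested. In bulk RNA, fewer cells of a type and less RNA per cell cannot be told apart.

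The start regions of the 2 genes that led to the choice of the family are shown first, as the 250 bases before a RefSeq transcription start in mouse build GRCm38.p6. Rab15 has 4 listed starts on chromosome 12, and the most upstream is printed. Rab22a has 1, on chromosome 2. Each is written 5′ to 3′ on the gene's strand, with CG dinucleotides in capitals.
Rab15, chr12:76822525-76822774, minus strand: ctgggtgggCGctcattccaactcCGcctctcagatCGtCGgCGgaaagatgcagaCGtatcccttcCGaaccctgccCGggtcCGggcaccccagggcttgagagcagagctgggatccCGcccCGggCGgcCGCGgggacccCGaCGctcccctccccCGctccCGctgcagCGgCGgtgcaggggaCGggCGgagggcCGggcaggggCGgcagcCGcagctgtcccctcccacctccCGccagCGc
Rab22a, chr2:173659595-173659844, plus strand: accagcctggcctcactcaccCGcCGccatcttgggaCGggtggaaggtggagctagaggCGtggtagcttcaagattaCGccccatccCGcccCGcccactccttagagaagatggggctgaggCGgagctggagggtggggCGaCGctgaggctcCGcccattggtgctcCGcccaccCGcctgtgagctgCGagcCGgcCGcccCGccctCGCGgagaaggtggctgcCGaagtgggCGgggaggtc
Both are rich in CG. The full window of 300 bases, which adds the 50 after the start, held 38 CG dinucleotides for Rab15 and 27 for Rab22a, against a median of 7 over 32851 RefSeq windows of that length. The core of the PU-box, the motif bound by PU.1, was searched as GAGGAA on both strands. It was in neither window, and it was in 1 of the 3 other windows of Rab15. Of 59 member genes 48 matched a window, and 11 of their 60 windows (18.3%) held the motif, against 28.3% of all windows. A match of these letters is not a binding site, and their absence says nothing about PU.1 beyond this stretch.

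Rab15, a Rab of early and recycling endosomes linked to the return of transferrin receptor to the surface, was lower in PU.1 ki/ki HSCs. Its only probe set, 1417829_a_at, read 51, 54 and 51 on PU.1 ki/ki replicates 1 to 3 and 157, 167 and 185 on wild-type replicates 1 to 3. The 3 values of each group lay close together and far from those of the other group. The means were 52.0 ± 1.73 and 169.7 ± 14.2 (SD, n = 3 each), a difference of -1.68 ± 0.12 (SE) in log2(intensity + 1). All differences below are on this scale, PU.1 ki/ki minus wild type.

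Rab22a, a Rab of early endosomes that sorts receptors towards recycling, was read by 4 probe sets, which did not tell the same story. On 1424503_at it read 945, 995 and 703 on PU.1 ki/ki arrays against 233, 263 and 222 on wild-type arrays, with no overlap and a difference of 1.86 ± 0.18 (SE). On 1424504_at it read 108, 94 and 170 against 69, 62 and 16, again without overlap, with a difference of 1.52 ± 0.63 (SE). The lowest of these values was on wild-type replicate 3, and without that array the difference on this probe set was 0.87. On 1451379_at the PU.1 ki/ki arrays read 349, 298 and 278 and the wild-type arrays 271, 47 and 511. Here wild-type replicates 2 and 3 lay on either side of every PU.1 ki/ki array, and the difference of 0.71 became -0.28 without wild-type replicate 2. On 1454988_s_at the values were 314, 236 and 185 against 163, 396 and 189, which overlap, with a difference of 0.06.

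**Figure D1:**
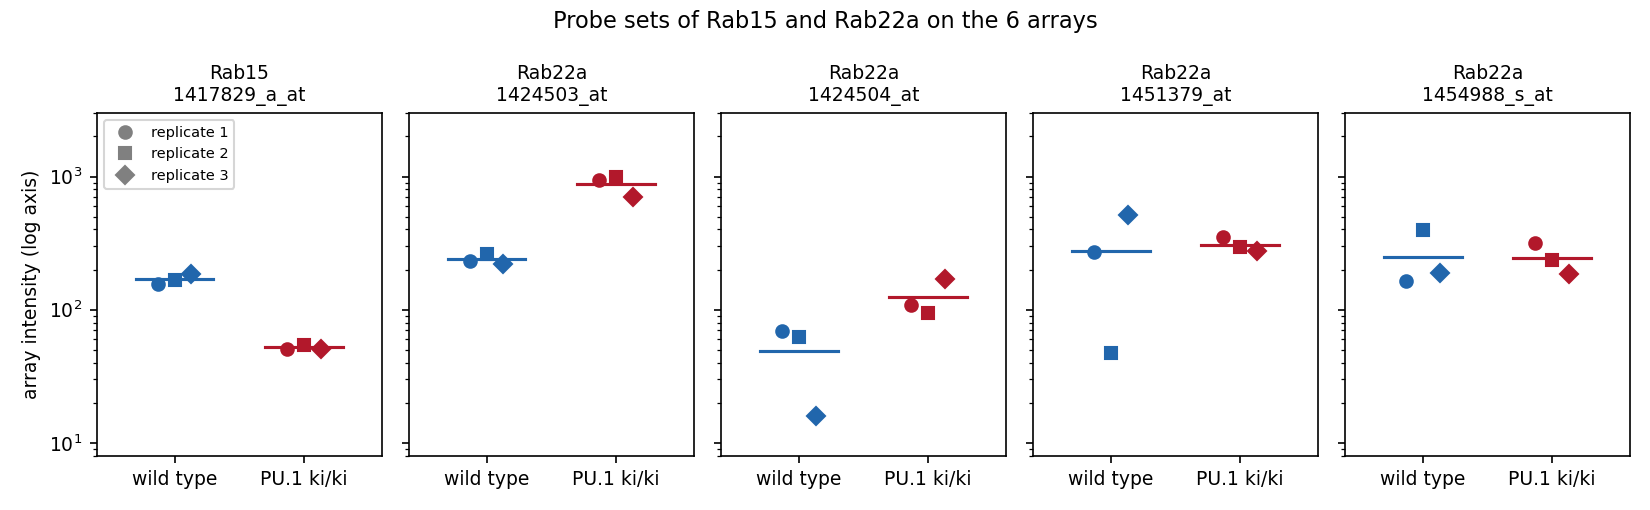
Array intensity (log axis) of the probe set of Rab15 and the 4 probe sets of Rab22a, with 1 point per array, marker shape for the replicate number and a line for the mean of 3 arrays. The groups are apart for Rab15 and for 2 of the 4 Rab22a probe sets, and overlap on the other 2.

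Over the whole family some probe sets had the genotypes apart, in either direction. The values of the 2 genotypes did not overlap for 16 of 132 Rab probe sets, with 8 higher and 8 lower on the knock-in arrays, which is 12.1%. Over all 45037 probe sets the share was also 12.1%, as 6.62% higher and 5.46% lower. In the linear model fitted to all probe sets with limma, 0 passed an adjusted p of 0.05 (0%), Rab probe sets included, while 3731 had an unadjusted p under 0.05 (8.28%). Of the Rab probe sets 85 had a higher and 45 a lower mean in PU.1 ki/ki, and 2 were at the minimum value of 10 on all arrays. The median difference was 0.20, against 0.00 over all probe sets and 0.16 over the brighter part of them, those with a mean of at least the median. After median centring, which moved the median of all probe sets from 0.00 to -0.11, 72 Rab probe sets were higher and 60 lower, with a median of 0.10. The split of those without overlap was then 7 higher and 16 lower, which is 17.4% of Rab probe sets against 19.5% of all probe sets. Array medians were 45, 46 and 46 in PU.1 ki/ki and 43, 43 and 41 in wild type. Centring therefore makes any probe set at 10 on all arrays lower in PU.1 ki/ki without overlap. Such probe sets number 2 among the Rabs and 1160 over the array. Of the 16 probe sets named below as apart, 15 stayed apart under quantile normalization and 15 under median centring, and 16 kept their sign under each.

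**Figure D2:**
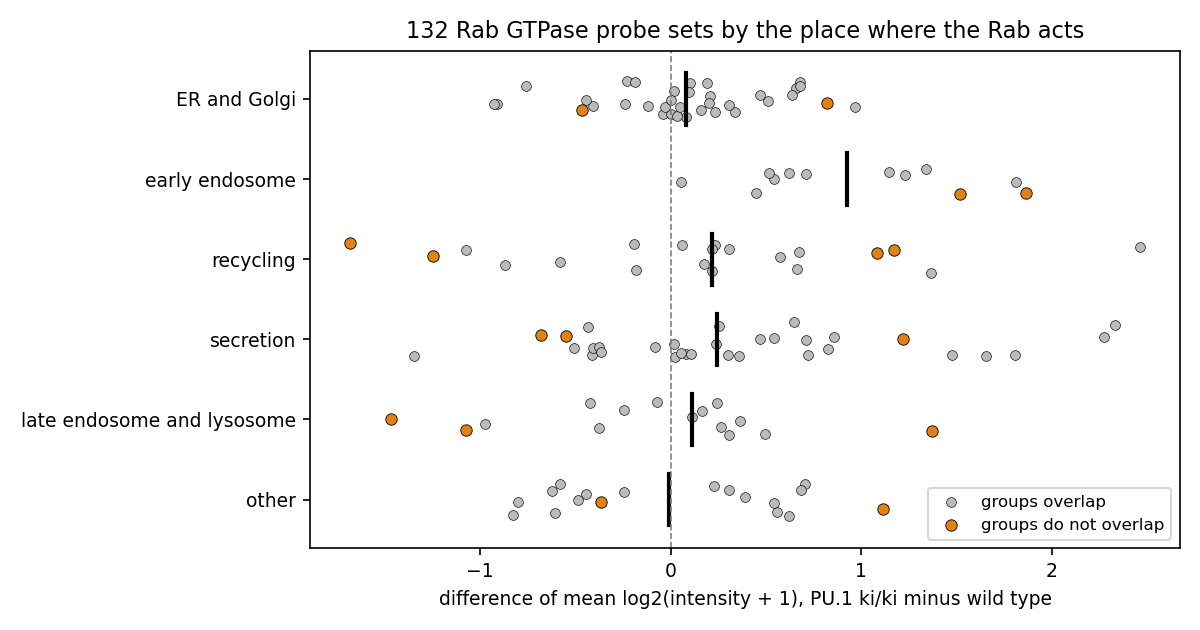
Difference of mean log2(intensity + 1), PU.1 ki/ki minus wild type, for each of the 132 Rab probe sets, grouped by the place where the Rab is known to act, with black bars for group medians and orange points for probe sets whose groups do not overlap. Orange points lie on both sides of 0, and the 12 early endosome points, 4 of them Rab22a, lie to the right of 0.

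Early endosome Rabs numbered 6 genes (Rab5a, Rab5b, Rab5c, Rab21, Rab22a and Rab31), and all 12 of their probe sets had a higher mean in PU.1 ki/ki, with a median of 0.93. Of these, 4 belong to Rab22a, which led to the choice of the family, and without it 8 of 8 were higher (median 0.88). Among all probe sets 50.1% were higher, and among their brighter part 59.6%. The grouping is also a choice, since Rab15, found on early endosomes too, is counted with the recycling Rabs, and with it 12 of 13 were higher (median 0.71). Under quantile normalization or median centring 11 of 12 were higher. The count moved with the wild-type arrays used. It was 11 of 12 without wild-type replicate 1 (median 1.74), 11 without replicate 2 (median 0.82), 8 without replicate 3 (median 0.54) and 8 against replicate 1 alone (median 0.33). Without Rab22a, 4 of 8 were higher against wild-type replicate 1 alone, with a median of 0.03. Rab5c, which serves fusion of early endosomes, read 551, 391 and 254 on PU.1 ki/ki arrays against 675, 116 and 42 on wild-type arrays. Rab21, a Rab of integrin uptake, read 2134, 1480 and 2357 against 2526, 1545 and 175 on 1437741_at. For Rab5c and on this probe set of Rab21, wild-type replicate 1 was above every PU.1 ki/ki array and replicate 3 far below. The other probe set of Rab21, 1437742_at, read 708, 485 and 312 against 544, 530 and 120. Rab31, close in sequence to Rab22a and active between Golgi and endosomes, read 1627, 514 and 459 against 611, 32 and 440 on 1431691_a_at, with its low value on wild-type replicate 2. Rab5a, the founding Rab of early endosome fusion, read 68, 179 and 151 against 516, 49 and 19. Outside Rab22a, 0 of these probe sets had groups apart.

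Recycling Rabs went both ways, with 13 of 20 probe sets higher, 7 lower and a median of 0.22. Apart from Rab15, Rab17, known from transcytosis in epithelia, was lower on 1422178_a_at, with 43, 94 and 118 on PU.1 ki/ki arrays against 243, 125 and 217 on wild-type arrays (-1.25). Its other probe set read 50, 47 and 45 against 26, 88 and 29 and overlapped. Rab14, which acts between Golgi and endosomes, was higher on 1419244_a_at, with 1663, 1750 and 1535 against 1374, 615 and 555 (1.08). Wild-type replicate 1 lay just under the PU.1 ki/ki arrays there. Rab11b, of the recycling endosome, read 177, 157 and 246 against 126, 135 and 34 on 1439508_at (1.17). The groups no longer stayed apart on this probe set after quantile normalization. On its brightest probe set, 1423448_at, Rab11b read 1093, 996 and 1086 against 1374, 1043 and 525, with overlap. Rab11a, the close relative of Rab11b, read 1001, 1142 and 1311 against 1590, 433 and 1344 on 1449256_a_at, also with overlap.

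Among 32 probe sets of the 12 secretion Rabs, 22 were higher and 10 lower (median 0.24), and 3 had groups apart. Rab27a, which docks secretory and lytic granules at the plasma membrane, read 318, 605 and 293 against 234, 217 and 87 on 1429123_at (1.22). On 1425285_a_at, its probe set with the highest readings, it read 723, 951 and 658 against 946, 1084 and 1041, a difference of -0.41 with values that overlap by 1 array. Rab10, of exocytic transport to the plasma membrane, read 1427, 1061 and 1250 against 2210, 1784 and 1990 on 1429296_at, lower without overlap (-0.68). Its 2 other probe sets pointed the opposite way, with 2116, 1073 and 1945 against 1266, 1082 and 74 on 1422664_at and 989, 1015 and 913 against 1239, 141 and 40 on 1453095_at. Wild-type replicate 3 read low on both, and replicate 2 on the second. Rab3b, a Rab of regulated exocytosis, read 71, 54 and 69 against 122, 81 and 85 (-0.55, apart). Rab8b, also of exocytic transport, read 1570, 1495 and 1408 against 3005, 190 and 184 on 1426799_at. Its wild-type values enclosed the PU.1 ki/ki values, so its difference of 1.65 does not describe wild-type replicate 1. Rab3d, known from granules of exocrine and mast cells, had wide-ranging wild-type values on 1418891_a_at, with 373, 1675 and 69 against 78, 212 and 157 in PU.1 ki/ki. Rab27b, a granule Rab of platelets and mast cells, did not have groups apart on any of its 4 probe sets, which differed by 0.02 to 0.72. Rab37, another granule Rab, read 944, 1540 and 869 against 613, 1312 and 590 on 1450167_at.

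In the late endosome and lysosome group, with 15 probe sets of 9 genes, 8 were higher and 7 lower (median 0.11). Rab24, linked to autophagy, read 218, 177 and 204 on PU.1 ki/ki arrays against 459, 386 and 419 on wild-type arrays on 1421873_s_at, a difference of -1.08 ± 0.14 (SE). As for Rab15, the arrays of each genotype lay close together, wild-type replicates 2 and 3 included. Its second probe set, 1421872_at, read 106, 205 and 121 against 460, 172 and 55, with overlap and a difference of -0.24. Rab12, which steers transferrin receptor towards lysosomes, was apart in both directions. It read 302, 269 and 312 against 138, 200 and 52 on 1427992_a_at (1.37) and 81, 71 and 117 against 154, 225 and 422 on 1457783_at (-1.47). Rab7, the Rab of late endosome maturation, read 2241, 2296 and 2078 against 2323, 2101 and 1163 on 1415734_at, with overlap. Rab9, of transport from late endosomes to the Golgi, read 338, 500 and 492 against 382, 436 and 289. Rab38 and Rab32, relatives that serve melanosomes and other lysosome-related organelles, overlapped as well, with 885, 1019 and 1445 against 888, 1035 and 665 for Rab38 on 1417700_at and 200, 243 and 303 against 452, 84 and 273 for Rab32.

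Rabs of the ER and Golgi were near balance, with 21 of 35 probe sets higher, 12 lower and a median of 0.08. The median was 0.00 under quantile normalization and -0.02 under median centring. Rab1a, which drives ER to Golgi transport, read 2075, 2501 and 2025 against 2829, 2423 and 2538 on 1416082_at, a difference of -0.24. Rab2a, of the same early secretory route, had 7 probe sets. It was lower without overlap on 1418621_at, with 1201, 1288 and 1276 against 1491, 1712 and 2034 (-0.46), and higher without overlap on 1418623_at, with 682, 1116 and 878 against 670, 405 and 444 (0.82). On the second the nearest values, 682 and 670, nearly met, and the groups overlapped after median centring. On 1449676_at Rab2a read 3258, 2963 and 2843 against 2792, 4247 and 1658, and on 1436477_x_at the minimum of 10 on all arrays. Rab6a, of transport within and out of the Golgi, read 589, 361 and 727 against 621, 1259 and 1361 on 1448304_a_at (-0.93), with overlap.

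Of the remaining Rabs, with 18 probe sets, 9 were higher and 9 lower (median -0.01). Rab18, found on lipid droplets and the ER, read 418, 515 and 1004 against 197, 331 and 323 on 1420899_at (1.12, apart). On its second probe set, 1420900_a_at, it read 617, 1275 and 524 against 585, 1723 and 1130, with the opposite sign (-0.49). Rab39 counts among the probe sets that were apart, but its values of 10, 11 and 10 against 12, 15 and 14 lie at the floor of the table and have no useful order. Rab23, a negative regulator of Hedgehog signalling, had 3 probe sets with differences of 0.56, -0.58 and -0.44, all with overlap.

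Brightness differs with probe sequence. A rank of brightness was therefore used only to choose genes to name, and levels are not compared between genes. Over the family, 15 probe sets of 11 genes read over 512 on all 6 arrays, and 18 probe sets stayed under 50 on all 6. For 5 genes every probe set stayed under 50. These were Rab9b, Rab39, Rab30, Rab33a and Rab26, whose highest readings were 13, 15, 20, 26 and 38. At these readings a difference between genotypes could not be measured.

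Spread was larger within the wild-type group, for Rab probe sets as over all probe sets. Wild-type replicate 3 held the lowest value more often among Rab probe sets than among all. The median SD of log2 values over Rab probe sets was 0.40 among PU.1 ki/ki and 0.71 among wild-type arrays, against 0.32 and 0.56 over all probe sets. The wild-type SD was the larger for 97 of 132 Rab probe sets (73.5%) and for 71.7% of all. For 48 Rab probe sets (36.4%) wild-type replicate 3 held the lowest of the 6 values, against 23.1% of all probe sets. For wild-type replicate 2 the shares were 18.2% and 20.1%, and for the 3 PU.1 ki/ki arrays 6.06 to 11.4% and 8.79 to 9.31%. Of 31 bright Rab probe sets, 6 were at least 4-fold below the other arrays on wild-type replicate 3 (Rab10 on 2 probe sets, Rab21 on 2, Rab8b and Rab14) and 4 on replicate 2 (Rab8b, Rab31, Rab38 and Rab10). On the other 4 arrays 0 were. Without wild-type replicates 2 and 3 the median difference of the family was 0.00, with 65 probe sets higher and 62 lower.

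**Figure D3:**
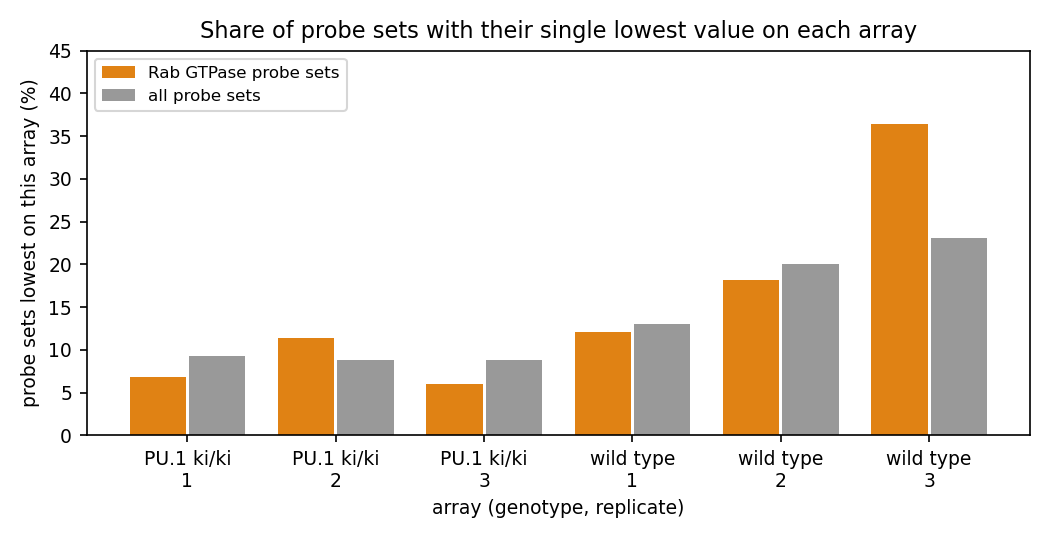
Bars give the percentage of Rab probe sets (orange) and of all probe sets (grey) that had their single lowest value on the named array. Wild-type replicate 3 stands out, with 36.4% of Rab probe sets against 23.1% of all.

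Probe sets of the same Rab gene often disagreed. Of 38 genes with several probe sets, 15 had differences of 1 sign on all of them and 23 did not, and the median range of differences within a gene was 0.97. Of 13 genes with a probe set whose groups were apart, 10 had further probe sets, and on 7 of these 10 genes at least 1 probe set had the opposite sign. Rab12 was the only gene with several probe sets that were all apart, in opposite directions. The widest range was that of Rab14, where 1419245_at read 2076, 303 and 50 on PU.1 ki/ki arrays against 17, 54 and 192 on wild-type arrays (2.47) and 1441992_at read 135, 44 and 231 against 190, 374 and 185 (-1.08). Rab22a differed in size and not in sign on the values as deposited, from 0.06 to 1.86. The sign did not hold in every setting, since 1454988_s_at differed by -0.13 under quantile normalization and -0.05 under median centring. By the maker's suffixes, 96 of the 132 are plain probe sets (_at), 23 read several transcripts of a gene (_a_at), and 13 can share probes with other sequences (7 _s_at and 6 _x_at). Those 13 include 1421873_s_at of Rab24 and 1454988_s_at of Rab22a, and related Rabs are a possible source of shared signal that was not tested.

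**Figure D4:**
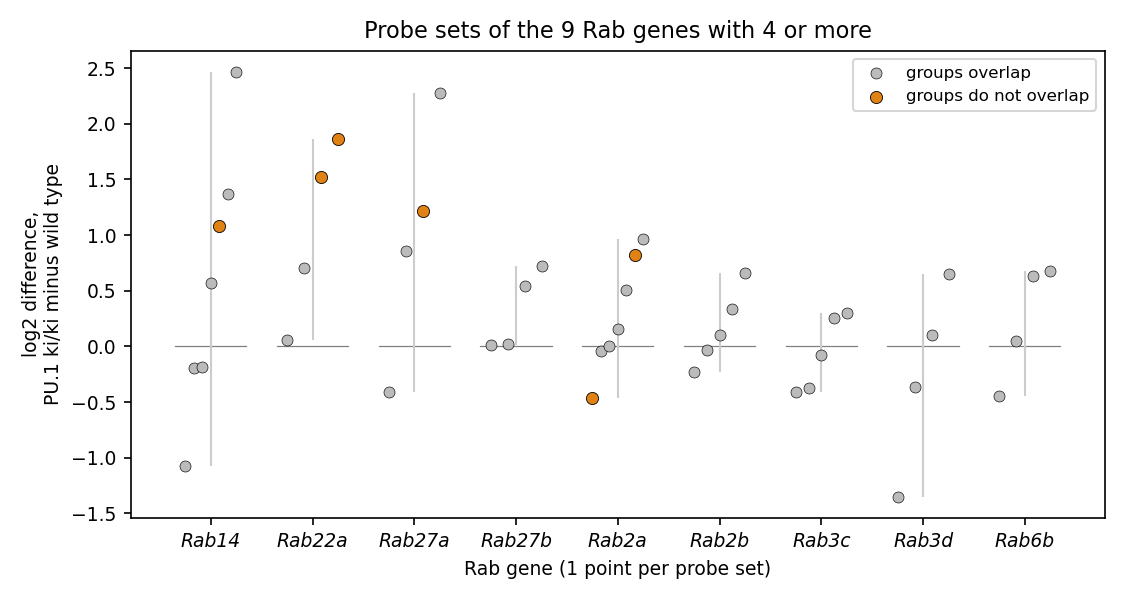
Log2 difference, PU.1 ki/ki minus wild type, for each probe set of the 9 Rab genes with 4 or more probe sets, with orange for probe sets whose groups do not overlap. Rab2a has orange points above and below 0, and Rab14 spans -1.08 to 2.47.

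Genes that act on Rabs were counted from lists of exchange factors, GTPase-activating proteins, effectors and the machinery of prenylation and recycling. With 131 of 139 entries measured on 291 probe sets, 0 passed the adjusted p of 0.05 (limma, lowest adjusted p = 0.430). At an unadjusted p under 0.05, 16 were higher and 11 lower on the knock-in arrays, together 9.28%. Over all probe sets the share was 8.28%, as 4.6% higher and 3.68% lower. The groups did not overlap for 40 probe sets (13.7%, against 12.1%). The median difference was 0.17. By class, 8 effector probe sets were higher and 6 lower of 115 at that unadjusted p, 6 and 2 of 75 for exchange factors, 2 and 3 of 84 for GTPase-activating proteins, and 0 of 17 for prenylation and recycling.

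The regulators with the lowest p in each direction had adjusted p of 0.430 to 0.553 (limma). Rilpl1, a RILP-like partner of Rab8 and Rab10, read 739, 1065 and 502 on PU.1 ki/ki arrays against 65, 99 and 178 on wild-type arrays (2.80 ± 0.47 SE), with 1 of its 3 other probe sets of opposite sign. Rabep1, the Rab5 effector rabaptin-5, read 514, 373 and 310 against 154, 150 and 229 (1.16), and the 3 others of the gene had that sign too. Myo5a, the motor that Rab27a recruits, read 84, 85 and 86 against 44, 45 and 24 on 1431320_a_at (1.21), while 1419754_at read 49, 45 and 68 against 121, 163 and 68 (-1.04). Dennd1b, an exchange factor for Rab35, read 65, 110 and 63 against 36, 43 and 32 (1.04). Of its 3 other probe sets, 1 had the opposite sign. Bicd2, a dynein adaptor that binds Rab6, differed by 0.49 on 1422746_s_at, and its 5 other probe sets had the opposite sign. Dennd5b, of the same DENN family as Dennd1b, read 27, 18 and 29 against 15, 10 and 10, near the floor. Of its 3 other probe sets, 2 had the opposite sign.

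In the other direction, Vps33a, a subunit of the HOPS tether that works with Rab7, read 33, 57 and 78 on PU.1 ki/ki arrays against 143, 267 and 116 on wild-type arrays (-1.62), and its other probe set had the opposite sign. Myrip, which links Rab27a to myosin, read 32, 41 and 35 against 57, 111 and 87 (-1.17). Gapvd1, an exchange factor for Rab5, was lower on 1457093_at, with 29, 23 and 21 against 111, 42 and 80 (-1.54), and higher on 3 of its 4 other probe sets. One of these, 1429454_at, read 1554, 1963 and 2055 against 591, 1102 and 1353 (0.94). Of the TBC-domain proteins, Sgsm1 read 15, 38 and 44 against 112, 84 and 63 (-1.48) and Tbc1d32 55, 42 and 30 against 72, 77 and 102 (-0.99). For Sgsm1, 1 of the 2 other probe sets had the opposite sign. Rims2, a Rab3 effector of synapses, read 10, 10 and 10 against 16, 13 and 20, which is near the floor. Of its 4 other probe sets, 1 had the opposite sign.

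**Figure D5:**
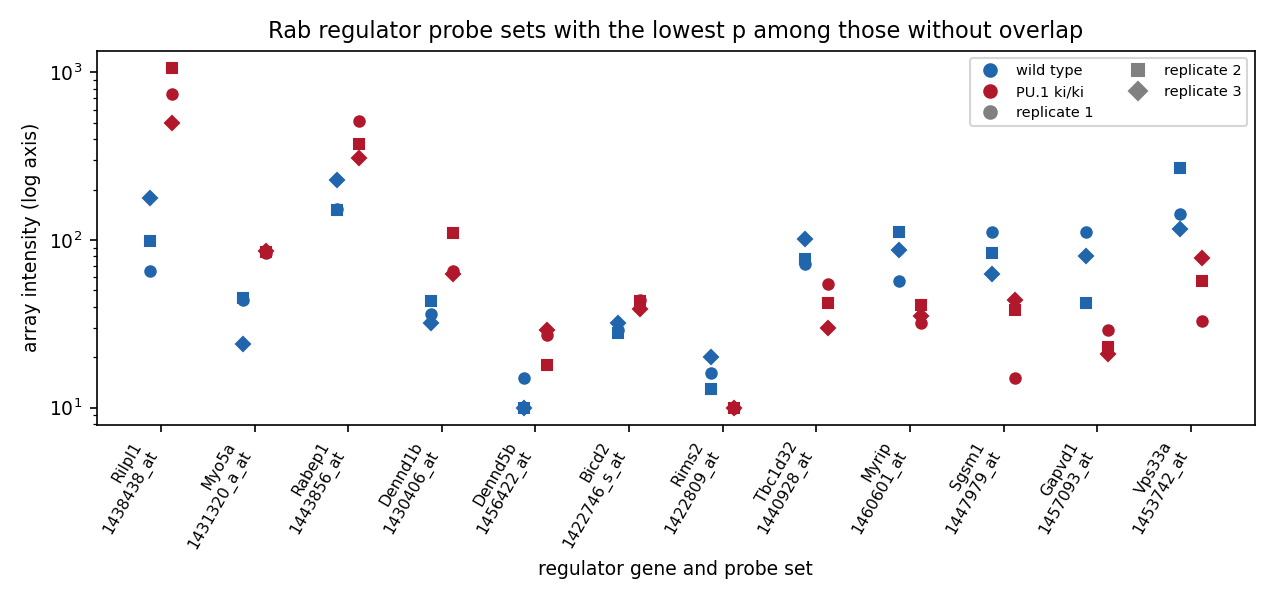
Array intensity (log axis) of the 12 regulator probe sets with the lowest p among those whose groups do not overlap, 6 in each direction, with 1 point per array (blue wild type, red PU.1 ki/ki) and marker shape for the replicate. The readings of Rims2 and Dennd5b touch the floor of 10.

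Known partners of Rab15 and Rab22a were looked at by name whatever their values. Rep15, the Rab15 effector, read 93, 56 and 73 on PU.1 ki/ki arrays against 92, 116 and 419 on wild-type arrays, a difference of -1.18 (limma adjusted p = 0.663) with the highest reading on wild-type replicate 3. Rabgef1, an exchange factor for Rab5 that Rab22a recruits, differed by 0.29 to 0.35 on its 3 probe sets (limma adjusted p of 0.742 to 0.943). Rbsn, an endosomal effector of Rab5 and Rab22a, differed by 1.69, 0.70 and -0.21 on 3 probe sets. The first of these read 181, 196 and 160 against 188, 52 and 16, so wild-type replicate 1 was level with the PU.1 ki/ki arrays. Eea1, the endosomal tether, read 15, 113 and 46 against 21, 28 and 10. Gdi2, which extracts Rabs from membranes, had 6 probe sets, 4 with a higher and 2 with a lower mean in PU.1 ki/ki (-0.41 to 1.17, limma adjusted p of 0.639 to 0.8995).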

How the data were processed

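The values were the array intensities of the deposited series table, 1 per probe set and array, which the authors prepared with RMA, as the submitters' processing notes state. The probe sets tested hold whole numbers, linear in scale, with limits of 10 and 26199. The RMA version, the return from log2 and the floor of 10 are not given in the sources used here. Upper quartiles were 186, 188 and 187 on PU.1 ki/ki replicates 1 to 3 and 180, 154 and 150 on wild-type replicates 1 to 3. The arrays therefore do not share a common distribution, and how this came about under the stated RMA is not given. No further normalization was applied. Of 45101 entries 64 control probe sets were left out. The platform annotation named 34945 of the 45037 others with 1 gene, 932 with several (left unnamed), and did not list 9160. No column was left unused.

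A linear model of genotype alone was run on log2(intensity + 1) of all 45037 probe sets with limma 3.58.1 (R 4.3.3), with Benjamini-Hochberg adjustment and a threshold of 0.05. Differences of dim probe sets are understated on this scale. The model fit was tested on simulated data with an even spread, smaller than the median spread of these arrays. That test does not describe the power of the fit here. Figures were drawn with matplotlib 3.10.9, and sequences came from RefSeq tables (GRCm38.p6). The number of arrays limits the precision.

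The members and lists were chosen with earlier results of these data known. Named were Rab15, Rab22a, members whose groups do not overlap, the 5 member genes with the highest and the 5 with the lowest brightest-probe-set mean, those with over 3 probe sets, regulators without overlap at an unadjusted p under 0.05 (up to 6 in each direction) and a fixed set of partners, of which those reported here are named. Other members were chosen after their values were seen. Alternatives were quantile normalization, median centring, a pseudocount of 16, leaving out dim probe sets, a trended and robust prior, weights per array, a replicate block, and leaving out arrays. Counts of the role groups without wild-type arrays, and of the early endosome group without Rab22a or with Rab15, were added after seeing the data. Marker lists for megakaryocytes, erythroid cells, B cells and T cells were also read. Their sums were 1048 to 2470 in PU.1 ki/ki and 692 to 1605 in wild type, 291 to 578 and 408 to 1086, 303 to 347 and 195 to 790, and 164 to 276 and 238 to 289.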

Additional observations from a re-analysis of the deposited data

How the results depend on the processing

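In every setting run, 0 probe sets passed the adjusted p of 0.05 (limma), over the array and among Rab regulators. An unadjusted p under 0.05 was reached by 3731 probe sets, or 1701 without the dim ones, where fewer were tested. When single arrays were left out it was 2535 to 7183 over all probe sets, highest without wild-type replicate 1, and 18 to 48 for Rab regulators (27 with all arrays), again highest without wild-type replicate 1. Against wild-type replicate 1 alone, which leaves no wild-type spread in the fit, 53 regulator probe sets had such a p. The count over all probe sets rose in that fit too. With only 1 wild-type array, neither count is read as a difference between genotypes. The median difference of the Rab probe sets, 0.20, was 0.076 under quantile normalization, between 0.069 and 0.30 with 1 array left out, lowest without wild-type replicate 3, and 0 against wild-type replicate 1 alone. Their count without overlap, 16, lay between 21 and 38 with 1 array left out, and was 75 against wild-type replicate 1 alone, as fewer arrays overlap less often. The matching shares over all probe sets were 18.2 to 30.3% and 51.5%. The difference of Rab15 lay between -1.74 and -1.62 with 1 array left out, and was -1.45 with a pseudocount of 16. No pairing of the arrays by replicate number was seen, but correlations over 3 arrays per group cannot exclude it. Deviations of same-numbered arrays correlated at -0.016, 0.021 and -0.017, and with the number as a block 3369 probe sets and 27 regulator probe sets had an unadjusted p under 0.05, with 0 passing adjustment.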
